A study of Mus musculus with 12 samples.

Results

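A set of 159 nuclei was picked by its raw counts of unique molecular identifiers (UMIs, each of which marks 1 captured RNA molecule) from 184957 hippocampal nuclei with 500 to 10000 detected genes. A nucleus was a member when it held at least 3 UMIs of Reln, at least 1 of Trp73, none of Gad1 and Gad2, none of Samd3 and fewer than 2 of Mobp. The rule was written to find Cajal-Retzius neurons. The data bore this name out for only some of the members, and the set is therefore called the Reln+ Trp73+ nuclei here. Of the 159 nuclei, 48 held a UMI of Lhx1 or Ndnf, the marker genes given for that neuron beside Reln and Trp73, while 14 nuclei carried genes of motile cilia instead. A UMI of Lhx1, Lhx5, Ndnf or Ebf3 was held by 80 members, but also by 30.1% of the 3889 nuclei that met the rest of the rule without a Trp73 UMI, and Ebf3 alone was found in 30.9% of Reln glutamatergic nuclei, which held vesicular glutamate transporter UMIs but none of Trp73, against 21.4% of the members.

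The nuclei were isolated from 1 hippocampus, the left, of each of 12 female animals and were sorted before droplet-based 3′ snRNA-seq, with 1 library per mouse and 3 libraries per genotype and age. The 3xTg-AD mice were on a B6;129 background and carried human APPSwe and tauP301L transgenes, which a Thy1 promoter drives in neurons, and wild-type (WT) littermates served as controls, each at 6 and 12 months of age. All mice had been anesthetized and perfused before dissection. The libraries held 11352 to 19811 retained nuclei with a median of 4345 to 6698.5 UMIs per nucleus, and the doublet caller Scrublet marked 4.54 to 8.36% of nuclei. Doublets were kept unless stated. Any pair of libraries shared 29 to 107 cell barcodes, and no barcode belonged to 2 members. To describe the tissue, the 4 listed genes of dentate granule neurons (Prox1, C1ql2, Dsp, Plk5) summed to 69.8 CPM (counts per 1000000 UMIs) over all retained nuclei and the 4 of CA pyramidal neurons (Fibcd1, Mpped1, Wfs1, Spink8) to 43.6 CPM. The 5 of thalamic and habenular neurons (Tcf7l2, Lef1, Pou4f1, Tac2, Rora) summed to 2326 CPM over all nuclei and to 1205 to 3425 CPM in the members of a library. In oligodendrocyte nuclei the 3 lists stood at 192, 9.67 and 606 CPM. The dentate granule list was thus higher there than over all nuclei and is not particular to its neurons. The other 2 lists were lower there than over all nuclei but not absent. Sums of different genes do not give the shares of cell types.

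Cajal-Retzius neurons are early-born glutamatergic cells of the outermost layer of the cortex and of the hippocampal fissure. They secrete reelin, the glycoprotein encoded by Reln, which binds the lipoprotein receptors encoded by Vldlr and Lrp8 on neighbouring neurons and acts there through the adaptor protein encoded by Dab1. Most of these neurons die after birth in the neocortex, while a larger part persists in the hippocampus, and their identity depends on Trp73, a transcription factor of the p53 family. Reelin is not particular to them in the adult, since many GABAergic interneurons and some glutamatergic neurons also make it, and Trp73 is also a gene of ciliated ependymal cells, where it acts in the programme for motile cilia.

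Reln lies on the mouse genome GRCm38 at chr5:21884454-22344702 on the minus strand, and Trp73 at chr4:154056253-154140208 on the minus strand, where the antisense gene Trp73os lies within it. The values of both genes chose the members and are given as a description only. The members held a median of 6 Reln UMIs with a range from 3 to 71, and 92 of them held exactly 1 Trp73 UMI, with a highest value of 9. Just inside the Reln threshold, 35 members held 3 Reln UMIs, and just outside it 55 nuclei that met the rest of the rule held 2. A UMI of Lhx1, Lhx5, Ndnf or Ebf3, all genes of Cajal-Retzius neurons, was found in 14 of the 35 and in 14 of the 55. At the other threshold, the 92 nuclei with 1 Trp73 UMI stood beside 3889 nuclei that met the rest of the rule with none, and 47.8% of the former and 30.1% of the latter held a UMI of these 4 genes. The conditions on Gad1 and Gad2 alone kept out 87 further nuclei, that on Samd3 kept out 59 and that on Mobp kept out 4. A UMI of Lhx1, Lhx5, Ndnf or Ebf3 was held by 17 of the 87, by 36 of the 59 and by 0 of the 4, against 80 of the 159 members. The share was thus larger among the nuclei that Samd3 alone kept out than among the members.

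Because 1 Trp73 UMI can be free RNA, the share of nuclei with a Trp73 UMI was set beside that of nuclei that should lack the gene. It was 3.93% of the 4048 nuclei that met the rest of the rule, with an exact 95% binomial interval of 3.35 to 4.57% and a median of 8106 UMIs. In 4818 GABAergic nuclei with at least 3 Reln UMIs it was 0.892%, at a median of 9441 UMIs. Of 7601 oligodendrocyte nuclei, which have no use for the gene, 0.224% held a UMI at a median of 2809 UMIs. Over all 184957 retained nuclei, which include the classes above, the share was 1.39% at a median of 5335 UMIs. In contrast, 22.6% of the 682 nuclei with at least 3 of the 5 ependymal markers held a Trp73 UMI, and 14 of the 682 were members and so count in the 3.93%. All intervals cover counting error only, and nuclei of 1 library share their animal.

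The 159 nuclei were described as 3 kinds that were chosen after their values were seen, so no test was made between them. The first was the 32 nuclei with an Ndnf UMI. Ndnf, at chr6:65671590-65712326 on the plus strand, encodes a secreted neurotrophic factor that marks Cajal-Retzius neurons and neurogliaform interneurons. These were 20.1% of the members, with an exact 95% interval of 14.2 to 27.2%, and came from 11 of the 12 libraries. They were small and rich in Reln, with a median of 2592.5 UMIs in all and 28 of Reln, that is 111 Reln UMIs per 10000. Neuronal genes were found in most, with a UMI of Rbfox3 or Snap25 in 25 of the 32, and Scrublet called 3 of them doublets.

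**Figure D1:**
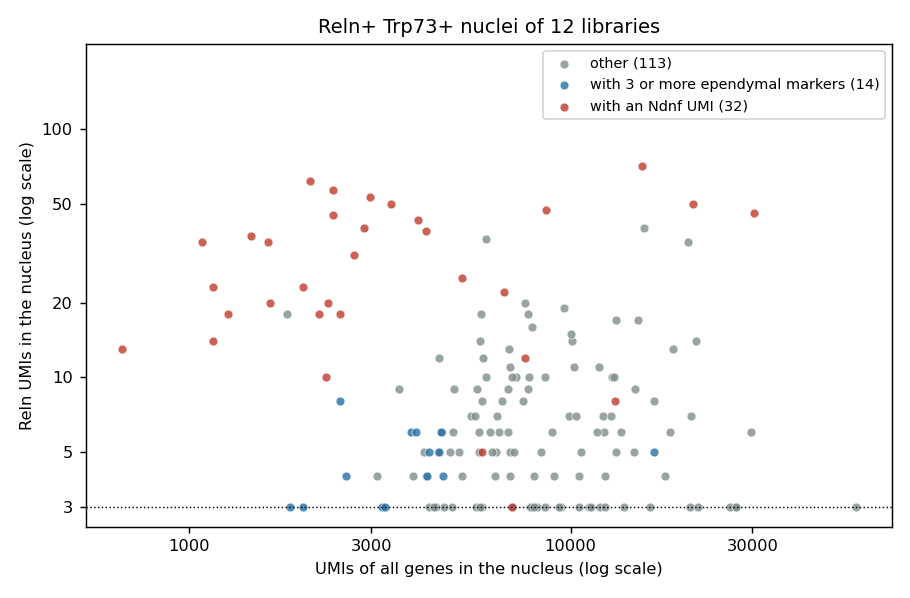
UMIs of Reln (vertical, log scale) against UMIs of all genes (horizontal, log scale) in each of the 159 Reln+ Trp73+ nuclei of 12 libraries, with the rule's threshold of 3 Reln UMIs as a dotted line. Nuclei with an Ndnf UMI (32, red) lie mostly at 10 to 71 Reln UMIs although many have fewer than 3000 UMIs in all, the 14 nuclei with ependymal markers (blue) lie at 3 to 8 Reln UMIs, and the other 113 (grey) have a median of 6.

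Other genes that neither the rule nor Ndnf had picked were detected in the Ndnf+ nuclei to different degrees. Ebf3, a transcription factor of the Ebf family made in Cajal-Retzius neurons of the septum and cortical hem, was detected in 17 of the 32 nuclei at 284 CPM of their sum, against 51.6 CPM in the other neuron-like members. Dach1, a nuclear cofactor, was detected in 96.9% of them at 1237 CPM, and Eln, which encodes elastin, in 53.1%. Cacna2d2, a calcium channel subunit, was found in 78.1%. In Reln glutamatergic nuclei the shares of these 3 genes were 48.8%, 6.52% and 64.0%, in oligodendrocyte nuclei 2.76%, 0.343% and 2.58%, and no test was made between them. Of the LIM homeobox genes, Lhx1 was detected in 6 nuclei and Lhx5 in 5. Next to Ndnf, Reln and Trp73, the genes that stood highest over all hippocampal nuclei in this kind were Eln, Pik3c2g, Dach1, Vmn2r1, Ebf3, Diablo and Utrn. Slc17a6, which encodes the vesicular glutamate transporter VGLUT2, was detected in 14 nuclei and Slc17a7, which encodes VGLUT1, in 3.

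The second kind was the 14 nuclei with at least 3 of the 5 ependymal markers, which came from 8 libraries. Dnah12, an axonemal dynein heavy chain, and Cfap299 were detected in all 14, and Tmem212 in 85.7%. Dnah12 and Tmem212 were among the markers that chose these nuclei, so their shares are largely set by the choice. Ccdc146, Spag16, Hydin and Spag17, all genes of motile cilia or flagella, were among their leading genes. They held 3 to 8 Reln UMIs with a median of 4.5, at a median of 3872.5 UMIs in all, and only 3 had a UMI of Rbfox3 or Snap25. None had a UMI of Lhx1, Lhx5, Ebf3 or Ndnf. Their genes went against the name of the rule. Of these nuclei, 9 of the 14 came from the WT libraries of 6 months, 1 from 3xTg-AD of 6 months and 2 from either genotype at 12 months.

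The remaining 113 nuclei were present in all 12 libraries and had a median of 7867 UMIs, with 6 of Reln. A UMI of Rbfox3 or Snap25 was detected in 112 of them, of Slc17a6 in 76 and of Slc17a7 in 14. Of these nuclei, 48 held a UMI of Lhx1, Lhx5 or Ebf3, and 65 held none. Lhx5 was detected in 16.8% of them and Lhx1 in 14.2%. After Reln and Trp73, their leading genes were Nwd2, Mdga1, Ndst4, Epha3, Tmem132d, Dchs2 and Zfhx4, of which none was a listed gene of Cajal-Retzius neurons. Scrublet called 15 of the 113 doublets. They are given no cell type name. The term other neuron-like members here means these 113 nuclei and rests on the UMI of Rbfox3 or Snap25 alone. No background share is given for that UMI.

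**Figure D2:**
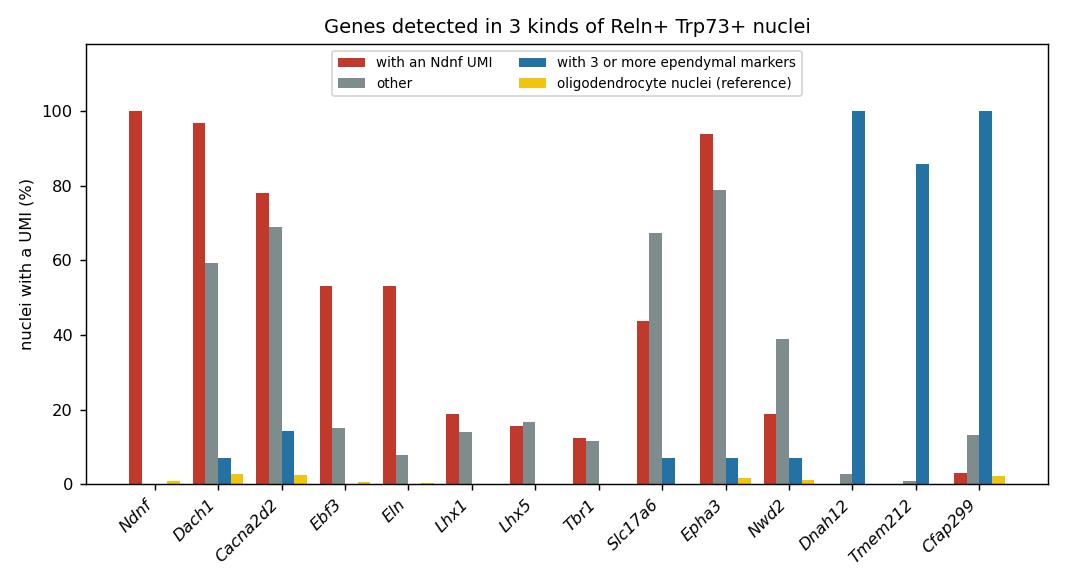
Percent of nuclei with at least 1 UMI of 14 genes in the 3 kinds of Reln+ Trp73+ nuclei and in oligodendrocyte nuclei, which stand for free RNA. By choice, Slc17a6 is absent from the oligodendrocyte nuclei, and Ndnf is present in all Ndnf+ nuclei and absent from the other members. Oligodendrocyte nuclei hold fewer UMIs than the other members, which lowers their shares. Ebf3 reaches 53.1% and Dach1 96.9% in the Ndnf+ nuclei, and the other members hold Lhx5 in 16.8% of nuclei. Dnah12 reaches 100% in the nuclei with ependymal markers, which it and Tmem212 helped to choose.

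Ndnf, Ebf3 and Lhx1 were found in a larger share of nuclei at higher Reln counts. Among the 49 members with 3 or 4 Reln UMIs, 1 held an Ndnf UMI, 6 an Ebf3 UMI and 4 an Lhx1 UMI. Of the 52 with 5 to 9 Reln UMIs, 2 held Ndnf, 7 held Ebf3 and 5 held Lhx1. Of the 32 with 10 to 19, Ndnf was found in 7, Ebf3 in 8 and Lhx1 in 6. In the 26 nuclei with 20 to 71 Reln UMIs, Ndnf was found in 22, Ebf3 in 13, Lhx1 in 7, Eln in 14 and Dach1 in all 26, although their median of 3173 UMIs was the lowest of the 4 ranges. No nucleus with 10 or more Reln UMIs had 3 ependymal markers. Over the same 4 ranges, Lhx5 was found in 8, 9, 1 and 6 nuclei and Tbr1 in 6, 4, 3 and 4, so that neither share rose at every step. Dach1 was found in 25, 31, 17 and 26 nuclei and Eln in 3, 5, 4 and 14, with the largest share of both in the highest range.

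Across all members, Ndnf was detected in 20.1%, Lhx5 in 15.1% and Lhx1 in 13.8% of nuclei, against 1.0%, 0.1% and 0.1% of oligodendrocyte nuclei. With each nucleus thinned to 3000 UMIs and shallower nuclei left out, which removed 24 members, 19 of them with Ndnf, the shares were 5.93%, 7.41% and 3.7% in members and 1.04%, 0.061% and 0.0305% in oligodendrocyte nuclei. Oligodendrocyte nuclei stand for free RNA only. Reln GABAergic nuclei also held Ndnf, Lhx5 and Lhx1 at the levels given below, and Lhx1 of members did not pass the test against them. Only 10 nuclei held UMIs of 2 or 3 of Lhx1, Lhx5 and Ndnf, and these had a median of 44 Reln UMIs. Calb2, which encodes the calcium-binding protein calretinin, was found in 2.52% of the members, and Nhlh1 had no UMI in any of them, which allows up to 2.18 CPM by a floor of 3 counts over all members.

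The members made up 0.0494 to 0.119% of retained nuclei per library. In 3xTg-AD at 6 months there were 7, 10 and 12 members, or 0.0494, 0.0632 and 0.0671% of retained nuclei. In WT at 6 months there were 14, 19 and 12, or 0.115, 0.119 and 0.0760%. The 3xTg-AD libraries of 12 months held 11, 15 and 20, or 0.0730, 0.0955 and 0.101%. The WT libraries of 12 months held 17, 10 and 12, or 0.0943, 0.0756 and 0.106%. The 3 WT shares lay above the 3 3xTg-AD shares at 6 months, while those of 12 months overlapped. Without the nuclei with ependymal markers the 6-month shares overlapped too. The lowest WT share was then 0.0510% and the highest 3xTg-AD share 0.0673%. The 6-month shares also overlapped with a higher Reln or Trp73 minimum, with a marker gene required and for the Ndnf+ nuclei alone. The separation held with a lower Reln minimum, without doublets, with thinned nuclei and with neurons as denominator.

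At 6 months, 3xTg-AD had a mean of 0.0599% ± 0.0093 against 0.103% ± 0.0238 for WT (SD, n = 3 each), with p = 0.1 in a two-sided exact permutation test, which is the smallest p that 3 against 3 libraries allow. At 12 months it was 0.0898% ± 0.0148 and 0.0919% ± 0.0152, with an exact permutation p = 0.8. Over both ages the difference of 3xTg-AD minus WT was -0.0228 percentage points, which did not pass the exact permutation test with genotypes exchanged within each age (p = 0.085, or 0.1875 when adjusted for 3 tests). The difference between 12 and 6 months was 0.00915 percentage points (exact permutation p = 0.44). The genotype difference at 12 months less that at 6 months was 0.0415 percentage points (exact permutation p = 0.125, adjusted p = 0.1875). This value turned to -0.00987 with a Reln minimum of 5, to -0.00868 where Lhx1, Lhx5, Ndnf or Ebf3 was also required and to -0.0190 for the Ndnf+ nuclei alone, and it was 0.0247 without the nuclei with ependymal markers. Those nuclei were most frequent in WT of 6 months, and without them the genotype difference over both ages was -0.0134 percentage points (exact permutation p = 0.25).

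The Ndnf+ nuclei alone numbered 2, 2 and 3 in 3xTg-AD and 3, 2 and 1 in WT at 6 months, and 0, 3 and 3 in 3xTg-AD and 6, 3 and 4 in WT at 12 months. Over both ages their mean share was 0.0130% for 3xTg-AD and 0.0225% for WT libraries, a difference of -0.00950 percentage points that did not pass the exact permutation test (p = 0.11). The library of 12-month 3xTg-AD replicate 2 held none among 15063 nuclei. Since nuclei drop out of the set when their RNA is sampled less deeply, the shares were also computed with each nucleus thinned to 3000 UMIs and shallower nuclei left out. They were then 0.0270% in 3xTg-AD and 0.0413% in WT over both ages, a difference of -0.0143 percentage points (exact permutation p = 0.35). Less RNA of the rule's genes in a nucleus and fewer such nuclei cannot be told apart by this rule.

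**Figure D3:**
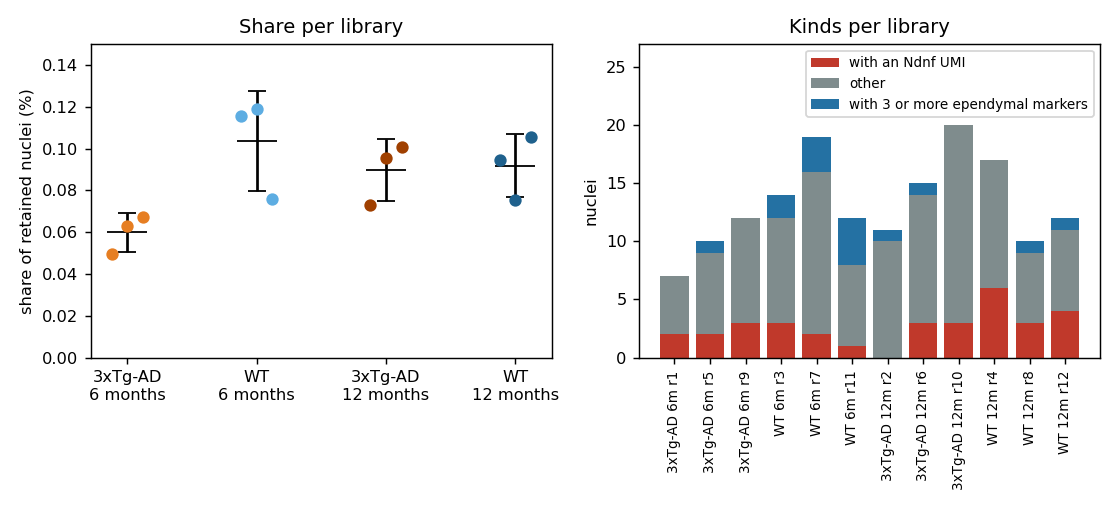
Left, share of Reln+ Trp73+ nuclei in percent of retained nuclei, with 1 point per library and the mean ± SD of 3 libraries per genotype and age. Right, number of nuclei per library by kind (with an Ndnf UMI, with ependymal markers, other), which shows the 9 nuclei with ependymal markers in the WT libraries of 6 months and the 3xTg-AD library of 12 months without Ndnf.

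To ask what distinguished the members from other Reln-expressing neurons, their UMIs were summed per library and compared with sums over other nuclei of the same library. The first comparator was 1458 Reln glutamatergic nuclei, which met the same rule apart from having no Trp73 UMI and at least 2 of Slc17a6 and Slc17a7. Members were higher for 372 and lower for 156 of 9578 genes tested with edgeR, which called 5.51% of all genes, 3.88% as higher and 1.63% as lower (adjusted p under 0.05 with a log2 fold change beyond 0.2 in either direction). The median log2 fold change over all genes tested was 0.08. The second comparator was 4641 Reln GABAergic nuclei, which had at least 3 UMIs of Gad1 and Gad2. Here members were higher for 916 and lower for 442 of 14783 genes, 9.19% of all, with 6.2% higher and 2.99% lower, and the median over all genes was 0.14. The split moved with the scaling and with the depth of the sums. With factors from all genes tested, the counts were 274 higher and 277 lower in the first comparison. They were 575 higher and 1022 lower in the second, and the medians over all genes moved to -0.04 and -0.12. With sums thinned to the smaller total, 130 were higher and 89 lower of 3610 genes in the first. In the second, 212 were higher and 232 lower of 3646, and the medians were 0.03 and 0.02. The part of each in the split was not tested.

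The counts also rested on the nuclei with ependymal markers, without which 174 genes were higher and 111 lower than in the Reln glutamatergic nuclei, and 542 higher and 435 lower than in the Reln GABAergic nuclei. The ependymal genes themselves were 4 of 4 tested higher in the first comparison, led by Tmem212 with a log2 fold change of 7.76, and 4 of 5 higher in the second. Ttr, the carrier protein made by the choroid plexus, was higher too, with log2 fold changes of 2.84 and 3.15. Apoe, a lipoprotein gene of astrocytes, was higher by 0.87 on the log2 scale in the second comparison. Of the oligodendrocyte markers, 1 of 4 tested was higher in the first comparison and 1 of 5 in the second, and of the 5 astrocyte markers 0 were called in either. Of the genes of thalamic and habenular neurons, 0 of 3 tested were called in the first comparison and 2 of 4 were higher in the second, Tcf7l2 at 1.51 and Lef1 at 1.49. Over all genes, 3.88% were higher in the first comparison and 6.2% in the second. Within the sums, the 5 ependymal markers together ranged from 31.1 to 1172 CPM over libraries, the 5 oligodendrocyte markers from 30.2 to 577 and the 5 astrocyte markers from 39.7 to 583. The 5 GABAergic neuron genes ranged from 35.7 to 2488 CPM and the 4 choroid plexus genes from 0 to 644. Over all nuclei these 2 lists stood at 1226 and 70.7 CPM. The part of the nuclei with ependymal markers and of free RNA in other genes was not tested unless a value without them is given.

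Of the 14 listed genes of Cajal-Retzius identity, 8 had enough counts for the test against Reln glutamatergic nuclei, of which 5 were higher, 2 lower and the median log2 fold change 1.27. Over all genes, 3.88% were higher and 1.63% lower, with a median of 0.08. A rare gene could pass the low-count filter through the members' small sums alone, which keeps rare genes that are higher there and drops others. The count and median of the list share this limit, as do the tests of Ndnf, Lhx5 and Lhx1 against Reln glutamatergic nuclei. Ndnf ranged from 0 to 464 CPM with a median of 88.7 CPM over the members' 12 libraries, from 0.856 to 18.9 with a median of 2.61 in Reln glutamatergic sums and from 7.88 to 33.6 with a median of 21.8 in Reln GABAergic sums. Members were higher in 11 of 12 libraries against the former and in 10 of 12 against the latter, and 1 library of members was at 0. The log2 fold changes were 4.63 ± 0.49 (SE, adjusted p = 1.83e-07, edgeR) and 2.56 ± 0.32 (adjusted p = 8.14e-08). All of the members' Ndnf UMIs came from the 32 nuclei above.

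Lhx5, at chr5:120431699-120441223 on the plus strand, encodes a LIM homeobox factor that acts in the formation of Cajal-Retzius neurons. It ranged from 8.92 to 33.1 CPM with a median of 20.8 in members, against medians of 2.0 and 5.33 CPM in the other 2 classes. Members were higher than the Reln glutamatergic sum in 12 of 12 libraries and higher than the Reln GABAergic sum in 11 of 12, with log2 fold changes of 3.24 ± 0.51 (SE, adjusted p = 7.93e-05) and 2.02 ± 0.40 (adjusted p = 0.00036). Lhx5 is among the rare genes that could pass the low-count filter through the members' small sums alone, which limits what these p-values show.

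Lhx1, its close relative at chr11:84518284-84525535 on the minus strand, ranged from 0 to 51.7 CPM with a median of 20.6. It was higher than in Reln glutamatergic nuclei, where the median was 1.97 CPM, by 3.20 ± 0.65 on the log2 scale (SE, adjusted p = 0.00179). This test shares the limit given for Lhx5. Reln GABAergic nuclei had a median of 10.4 CPM of Lhx1, and the log2 fold change against them was 0.76 ± 0.39 (adjusted p = 0.291), which did not pass.

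The Ebf genes split. Ebf3, at chr7:137193673-137314445 on the minus strand, was far above Reln GABAergic nuclei, by 3.08 ± 0.30 on the log2 scale (SE, adjusted p = 4.4e-10) and in 12 of 12 libraries. It stood near Reln glutamatergic nuclei, whose libraries had a median of 82.3 CPM against 55.8 CPM in members. Ebf1 and Ebf2, in contrast, were lower than in Reln glutamatergic nuclei, with log2 fold changes of -1.71 ± 0.31 (adjusted p = 0.000447) and -2.41 ± 0.40 (adjusted p = 0.00013). Ebf1 had a median of 47.3 CPM in members and of 383 CPM in Reln glutamatergic nuclei, and members were lower in 10 of 12 libraries. Among the members, Ebf1 stood at 29.6 CPM in the Ndnf+ nuclei and at 154 CPM in the other neuron-like ones.

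Tbr1, a T-box factor of early-born cortical glutamatergic neurons, was higher than in both classes, by 1.99 ± 0.53 (adjusted p = 0.019) and 4.4 ± 0.54 (adjusted p = 6.66e-08) on the log2 scale. It was rare even so, with 22 UMIs in 17 of the 159 nuclei. Against Reln GABAergic nuclei, 6 of 11 tested genes of the list were higher and none lower, with a median log2 fold change of 2.02, beside 6.2% higher and 2.99% lower and a median of 0.14 over all genes. The largest of these were Nhlh2, a helix-loop-helix factor, by 5.25 ± 0.71 (adjusted p = 6.87e-07) and Barhl2, a homeobox factor, by 5.03 ± 0.71 (adjusted p = 1.44e-06), on 13 and 12 UMIs in members. Genes this rare, Tbr1 among them, could pass the low-count filter through the members' small sums alone. The 6 of 11 and their median share this limit, and nothing about identity is read from them. Barhl2 had no UMI in the Ndnf+ nuclei. Cacna2d2 was called against Reln glutamatergic nuclei with a log2 fold change of 0.55 ± 0.16 (adjusted p = 0.0306), a call that was lost with DESeq2, with other size factors or normalization genes and with sums thinned to the smaller total (log2 fold change 0.38, adjusted p = 0.309).

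**Figure D4:**
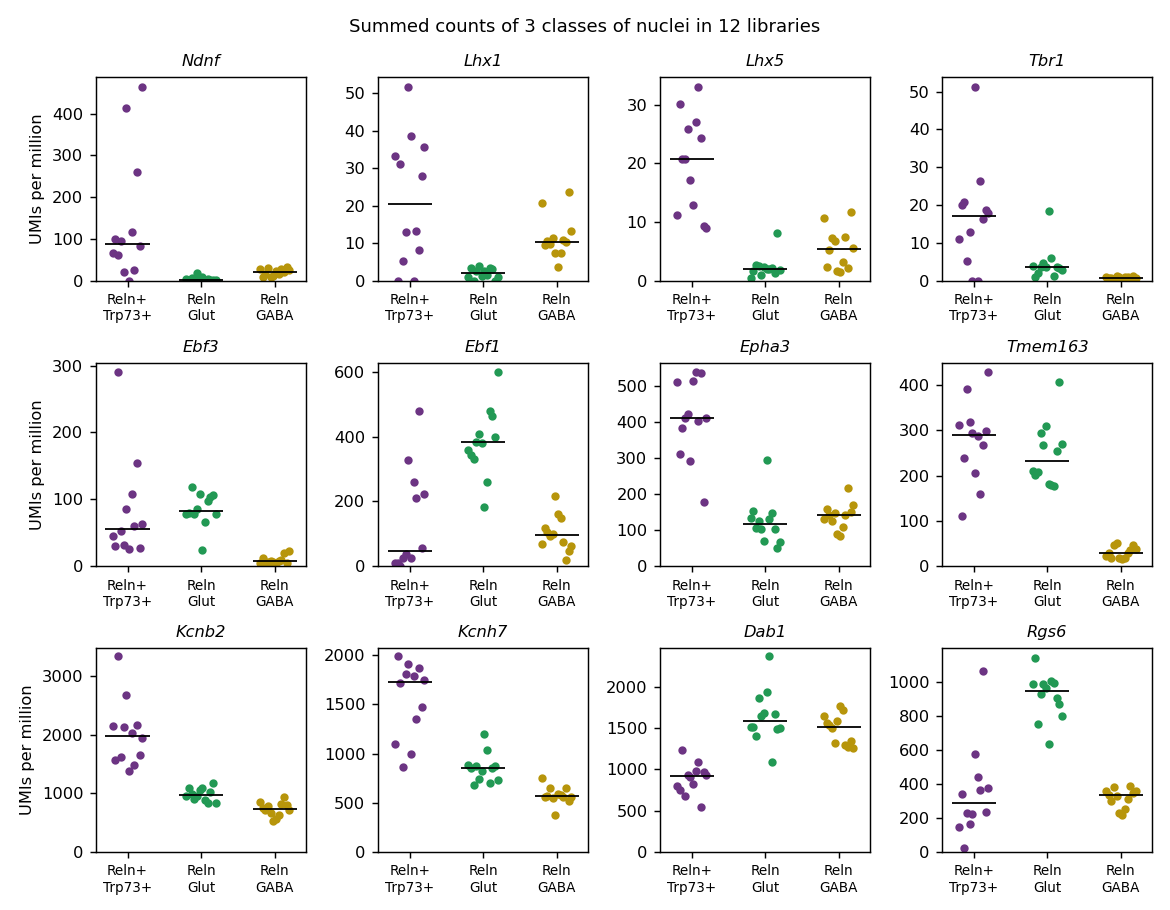
CPM of 12 genes per library in the sums over Reln+ Trp73+ nuclei, other Reln glutamatergic nuclei and Reln GABAergic nuclei, with 1 point per library and a bar at the median of 12 libraries. Lhx5 and Epha3 of members lie above the Reln glutamatergic sums in 12 of 12 libraries, Ndnf in 11 of 12, and Dab1 lies below them in 11 of 12.

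Of 16 tested genes of reelin signalling other than Reln, none was higher and 1 was lower than in Reln glutamatergic nuclei, with a median log2 fold change of 0.10, beside 5.51% of genes called and a median of 0.08 over all genes. The lower one was Dab1, the intracellular adaptor of the reelin receptors, which ranged from 544 to 1232 CPM in members with a median of 920 CPM. The median was 1584 CPM in Reln glutamatergic and 1522 CPM in Reln GABAergic libraries. Members were lower in 11 of 12 and in 12 of 12 libraries, with log2 fold changes of -0.84 ± 0.13 (SE, adjusted p = 4.74e-05) and -0.72 ± 0.12 (adjusted p = 1.67e-05).

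Against Reln GABAergic nuclei, 2 of 18 pathway genes were higher and 2 lower, beside 9.19% of all genes called. The reelin receptor gene Lrp8 was higher with a log2 fold change of 0.85 ± 0.14 (adjusted p = 1.44e-05) and stood at 138 CPM in the members' sum. Adamts2 and Adamts3, both of a family of proteases that cut reelin, went in opposite directions, at 2.67 ± 0.33 (adjusted p = 8.51e-08) and -1.72 ± 0.28 (adjusted p = 1.67e-05).

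A UMI of Slc17a6 or Slc17a7, the vesicular glutamate transporter genes, was found in 100 of the 159 nuclei and at least 2 in 64. The 100 were 15 of the 32 Ndnf+ nuclei, 2 of the 14 with ependymal markers and 83 of the other 113. The oligodendrocyte nuclei were chosen to lack both genes and give no background share for 1 UMI. Slc17a6 stood at 162 CPM and Slc17a7 at 37.1 CPM in the sum, while Slc17a8, which encodes VGLUT3, had 1 UMI. Slc32a1, the vesicular GABA transporter gene, stood at 3.64 CPM against 48.2 CPM in Reln GABAergic nuclei, a log2 fold change of -3.72 ± 0.43 (adjusted p = 1.42e-08). All 5 listed GABAergic neuron genes were lower than in that class, led by Dlx6os1 at -6.25, beside 2.99% of all genes lower. These were tested in nuclei that the rule had chosen to lack Gad1 and Gad2.

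Of 20 tested genes of glutamate transport and reception, 1 was higher and 5 were lower than in Reln GABAergic nuclei, 14 were not called, and the median log2 fold change was -0.13 against 0.14 over all genes, of which 9.19% were called. The lower ones included the AMPA receptor gene Gria1 (log2 fold change -0.74), the kainate receptor genes Grik1 (-1.19) and Grik3 (-1.30) and the metabotropic receptor gene Grm5 (-1.10), and the higher one was Grik4 (0.71). Against Reln glutamatergic nuclei, 2 of 20 were higher, among them Grik2, and Grik1 was lower, beside 5.51% of all genes called. Of the genes of GABA reception and chloride transport, 2 of 16 tested were higher and 1 lower than in Reln glutamatergic nuclei, and 2 of 17 higher and 3 lower than in Reln GABAergic nuclei. The α4 subunit gene Gabra4 and the γ3 gene Gabrg3 were higher by 1.06 and 0.77 and the α5 gene Gabra5 was lower, at -0.99, than in Reln glutamatergic nuclei. Without doublets, Gabra4 fell to a log2 fold change of 0.58 and was no longer called.

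Of the listed voltage-gated channel genes, 3 of 30 tested were higher and 2 lower than in Reln glutamatergic nuclei, and 5 of 31 higher and 3 lower than in Reln GABAergic nuclei, beside 5.51% and 9.19% of all genes called. Kcnb2, a delayed rectifier, ranged from 1385 to 3335 CPM over libraries in members, with a median of 1984 CPM against 967 and 731 CPM in the Reln glutamatergic and GABAergic sums. Members were higher in 12 of 12 libraries in both comparisons, by 1.05 ± 0.12 (adjusted p = 4.41e-07) and 1.48 ± 0.12 (adjusted p = 1.01e-11) on the log2 scale. Kcnh7, of the ERG family, was higher by 0.90 ± 0.13 (adjusted p = 3.89e-05) and 1.45 ± 0.13 (adjusted p = 9.5e-11). Both genes stood highest in the Ndnf+ nuclei, at 3487 and 3126 CPM, against 1814 and 1359 CPM in the other neuron-like members and 356 and 80.8 CPM in the nuclei with ependymal markers. Kcnq5, an M-current subunit, was higher than in Reln glutamatergic nuclei by 1.33 ± 0.15 (adjusted p = 4.41e-07). Against Reln GABAergic nuclei, the calcium channel subunit genes Cacna2d1 and Cacna2d3 were at 1.61 and -1.47.

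Genes of axon guidance and adhesion were 4 higher and 3 lower of 27 tested in the first comparison and 7 higher and 3 lower of 27 in the second, beside 5.51% and 9.19% of all genes called, with median log2 fold changes of 0.07 and 0.20 against 0.08 and 0.14 over all genes. Epha3, an ephrin receptor, was higher in both. It ranged from 177 to 540 CPM with a median of 411 CPM in members, against medians of 116 and 142 CPM, and was above both other sums in 12 of 12 libraries. The log2 fold changes were 1.85 ± 0.14 (adjusted p = 3.35e-10) and 1.61 ± 0.14 (adjusted p = 2.94e-11), and the gene was detected in 93.8% of Ndnf+ and 78.8% of the other neuron-like nuclei. The semaphorin gene Sema3c (1.03 and 0.98) and the contactin gene Cntn3 (0.62 and 0.70) were higher in both as well, and the netrin receptor gene Unc5b was higher in the first at 2.31. Nrp2, Cntn6 and Unc5d were lower in the first comparison, and Sema3a, Robo2 and Cntn5 in the second. Robo2, a Slit receptor, stood at 2498 CPM in the Ndnf+ nuclei and at 406 CPM in the other neuron-like members, so that its lower sum did not describe the Ndnf+ nuclei.

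Among abundant genes outside these lists, the 15 largest increases over Reln glutamatergic nuclei included Dchs2 (log2 fold change 1.83), Tmem132d (1.57), Zfhx4 (1.52), Pdzd2 (1.38), Zeb2 (1.38), Fndc3b (1.30) and Ndst4 (1.28). Tmem132d ranged from 284 to 1368 CPM with a median of 509 CPM and was above both other sums in 12 of 12 libraries. Several others of the 15 stood highest in the nuclei with ependymal markers, as did Maml2, a Notch coactivator, at 1649 CPM against 722 CPM in Ndnf+ and 125 CPM in the other neuron-like nuclei. The same held for Sox6 (1342 CPM), Nnat (1196 CPM) and Dnah7b (728 CPM). Pdzd2 and Fndc3b stood highest in the Ndnf+ nuclei, at 1125 and 568 CPM. The largest decreases were in Ebf1, Rgs6 (-1.54), Lmo3 (-1.26), Tafa1 (-1.23), Cntn4 (-1.21) and Hs3st4 (-1.18). Rgs6, a regulator of G-protein signalling, had a median of 287 CPM in members and 946 CPM in Reln glutamatergic nuclei and was lower in 11 of 12 libraries.

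Against Reln GABAergic nuclei, the largest increase among abundant genes was in Tmem163, a zinc transporter of synaptic vesicles, which had medians of 290 and 29.4 CPM and was higher in 12 of 12 libraries (log2 fold change 3.22 ± 0.16, adjusted p = 8.99e-19). Ndst4 (2.26), Tmem132c (2.22), Nwd2 (1.81) and Cacna2d1 (1.61) followed among others. Nwd2 rested on few nuclei, with a range from 34.5 to 2289 CPM over libraries and detection in 32.1% of the members. Rnf220 was called at 1.57, but was at 0.39 and no longer called without doublets. Meis2 (-2.65), Sox2ot (-2.64), Pde1c (-2.36), Gng7 (-2.32) and Rarb (-2.17) were the largest decreases after Dlx6os1 and Gm10754. Of 8 tested immediate-early genes, Arc, Junb and Egr1 were lower than in Reln GABAergic nuclei, at -2.18, -1.88 and -1.25, and the other 5 were not called, beside 2.99% of all genes lower. Against Reln glutamatergic nuclei, 0 of 5 tested were called.

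Of the 14 genes that correspond to the transgenes and the amyloid pathway, 1 was called in each comparison, beside 5.51% and 9.19% of all genes. App stood at 535 CPM in members, 592 CPM in Reln glutamatergic and 544 CPM in Reln GABAergic sums, and Mapt at 336, 352 and 298 CPM. Neither was called. The called ones were Apba1, which was lower in the first comparison (-0.45), and Apoe, which was higher in the second. Of the genes of the p53 family and cell death other than Trp73, 0 of 5 and 0 of 12 tested were called, and at the shares of 5.51% and 9.19% over all genes nothing is read from these counts.

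To ask whether the transcriptome of the members differed with genotype, the sums of 58043 to 192106 UMIs per library were compared. A single nucleus made up 9.71 to 33.7% of the members' UMIs in a library, and doublets made up 22.5% of all members' UMIs. At 6 months, doublets made up 52.0% and 50% of the members' UMIs of WT replicates 3 and 7 and 45.4% of those of 3xTg-AD replicate 1. They made up 0 to 5.83% in the other 6-month libraries and 6.94 to 21.7% in those of 12 months. At 6 months, 1 of 2035 genes was called, or 0.0491%. At 12 months edgeR called none of 2345 genes, with 122 at an unadjusted p under 0.05, and DESeq2 called none with 43. Over both ages 1 of 2549 genes was called, or 0.0392%. The interaction of genotype and age gave no call among 2803 genes with edgeR (122 at an unadjusted p under 0.05) or DESeq2 (69). No listed gene was called in any genotype or age comparison, but some groups had few or no genes with enough counts for the test. Of the 14 genes of Cajal-Retzius identity, 1 was tested at 6 months, 3 at 12 months and 3 over both ages, and no immediate-early, chemokine axis or calcium-binding protein gene was tested.

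The gene called over both ages was Rnf152, at chr1:105276914-105356710 on the minus strand, which encodes a ubiquitin ligase of lysosomes. It stood at 267, 332 and 217 CPM in 3xTg-AD and at 88.5, 51.8 and 51.7 CPM in WT at 6 months. At 12 months it stood at 205, 324 and 357 CPM in 3xTg-AD and at 162, 65.1 and 89.2 CPM in WT. The 6 3xTg-AD libraries lay above the 6 WT libraries, and the log2 fold change was 1.71 ± 0.26 (SE, adjusted p = 0.0147, edgeR). It kept this direction with each library left out, at 1.60 to 1.96, and was called in 7 of 12 such fits. The call was lost without 3xTg-AD replicate 5 or WT replicate 7 of 6 months, and without 3xTg-AD replicate 10 or WT replicate 8 or 12 of 12 months, with a highest adjusted p of 0.0738 over the 12 fits. Without doublets it was 1.87 and not called (adjusted p = 0.164).

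Other nuclei gave values in the same direction, which were not tested. In the sums over Reln glutamatergic nuclei, Rnf152 had means of 314 and 52.6 CPM in 3xTg-AD and WT at 6 months and of 182 and 85.7 CPM at 12 months. In Reln GABAergic nuclei the means were 175 and 39.6 CPM at 6 months and 116 and 69.5 CPM at 12 months, and over all retained nuclei 227, 62.9, 187 and 86.4 CPM in the same order.

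At 6 months the called gene was AC149090.1 (ENSMUSG00000095041), annotated as protein-coding on the unplaced scaffold JH584304.1 at 52190 to 59690. It stood at 144, 151 and 135 CPM in 3xTg-AD and at 567, 861 and 620 CPM in WT, with a log2 fold change of -2.28 ± 0.32 (SE, adjusted p = 0.044, edgeR). The 12-month libraries overlapped, at 410, 441 and 966 CPM in 3xTg-AD and 641, 307 and 553 CPM in WT, and the interaction did not pass the test (adjusted p = 0.58). The call was lost with any of the 6 libraries left out, at log2 fold changes of -2.38 to -2.07. The same 6-month difference stood in the other classes, with means of 164 and 758 CPM in Reln glutamatergic, 149 and 796 CPM in Reln GABAergic and 166 and 777 CPM in all nuclei. Copies of a gene on an unplaced scaffold may share reads, which makes its level uncertain.

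Between ages, Slc4a4, at chr5:88886818-89239653 on the plus strand, was the 1 of 2549 genes called, or 0.0392%. It encodes a sodium bicarbonate cotransporter that is abundant in astrocytes. At 6 months it stood at 344, 201 and 228 CPM in 3xTg-AD and 416, 259 and 172 CPM in WT, and at 12 months at 128, 54.0 and 39.7 CPM and 106, 65.1 and 53.5 CPM. All 6 libraries of 12 months were below all 6 of 6 months, and the log2 fold change was -1.96 ± 0.30 (SE, adjusted p = 0.0193, edgeR). The 5 astrocyte markers moved with it, with sums of 93.2 to 453 and 224 to 583 CPM in 3xTg-AD and WT at 6 months and of 39.7 to 321 and 56.8 to 83.7 CPM at 12 months, while the 5 oligodendrocyte markers moved the other way, at 30.2 to 99.96 and 58.3 to 72.9 CPM at 6 months and 146 to 577 and 122 to 446 CPM at 12 months. The part of either in the result was not tested. With 1 library left out it was -2.17 to -1.76 and called in 5 of 12 fits, but not without 3xTg-AD replicate 1 or 9 or WT replicate 3 of 6 months, nor without 3xTg-AD replicate 6 or 10 or WT replicate 8 or 12 of 12 months. Without doublets the log2 fold change was -0.84 (adjusted p = 0.932), and without the nuclei with ependymal markers it was -1.95 (adjusted p = 0.152). In Reln GABAergic nuclei its medians were 281 CPM at 6 and 531 CPM at 12 months in 3xTg-AD and 268 and 96.2 CPM in WT, and in Reln glutamatergic nuclei 80.8 and 183 CPM and 105 and 110 CPM. The difference between classes was not tested. Over all nuclei its means were 371 and 419 CPM at 6 months and 431 and 364 CPM at 12 months in 3xTg-AD and WT.

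**Figure D5:**
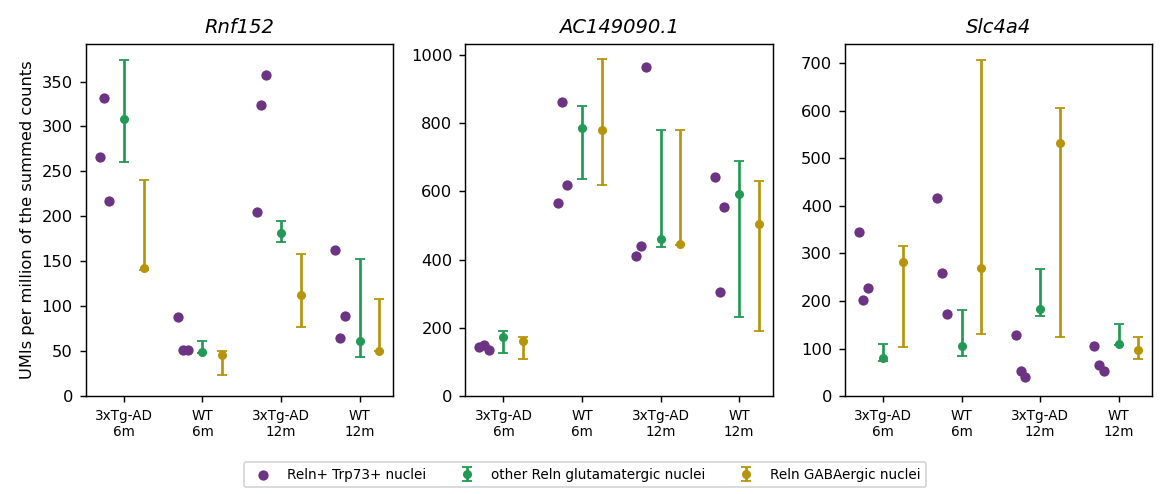
CPM per library of Rnf152, AC149090.1 and Slc4a4 by genotype and age, with points for the sums over Reln+ Trp73+ nuclei and the median with lowest to highest of 3 libraries for the other classes. By their medians, Rnf152 is higher in the 3xTg-AD groups and AC149090.1 lower in 3xTg-AD at 6 months in each class shown, while Slc4a4 is lower at 12 months in the Reln+ Trp73+ nuclei of both genotypes and in the WT Reln GABAergic nuclei.

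Among genes that were not called, those with the smallest unadjusted p in the genotype comparison over both ages were Sorcs3, a sorting receptor (log2 fold change 1.23, adjusted p = 0.54), Hivep2, Nckap5 and Gpr149 on the higher side, and Mapkbp1, Ptprr, Mfhas1, Epb41 and Lars2 on the lower. Sorcs3 ranged from 232 to 755 CPM over the 3xTg-AD libraries and from 121 to 232 CPM over the WT libraries, so that the groups met at 232 CPM. Ndnf was among the 5 lowest p at 12 months on the lower side, with 0, 117 and 26.5 CPM in 3xTg-AD and 260, 83.7 and 464 CPM in WT (log2 fold change -2.42, adjusted p = 0.87). The groups overlapped.

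The levels of the genes that chose the members are given as a description, since the rule cuts off their low values. Reln stood at 1422, 1599 and 1905 CPM in 3xTg-AD and 916, 874 and 2016 CPM in WT at 6 months, and at 859, 1655 and 973 CPM and 1835, 1311 and 2418 CPM at 12 months. The groups overlapped at both ages. Of the genes the rule did not use, App had a log2 fold change of 0.16 and Mapt of 0.32 over both ages, and neither was called.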

How the data were processed

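Nuclei were profiled with 10x Genomics 3′ v3 chemistry. The authors used Cell Ranger 6.1.1 with the mm10 (GRCm38) genome and deposited its filtered matrices, raw UMI counts by gene and nucleus that precede soupX and the nucleus filters. These counts are not normalized. The members, comparators and gene lists were chosen with earlier results of these data known. Some items are not reported here. GEO labels gave the groups, and positions are from GENCODE vM21.

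Nuclei with 500 to 10000 genes were retained (11352 to 19811 per library, 79155331 to 128303515 UMIs). No gene of the rule was tested between classes. For each class, the counts of a library were added up, and the sums were tested by edgeR's quasi-likelihood F test (version 4.0.16 in R 4.3.3, filterByExpr with a count minimum of 10), with library as a block between classes. Benjamini-Hochberg adjusted p-values of genes come from edgeR, except where DESeq2 1.42.0 is named. Genes were called below an adjusted p of 0.05 with a log2 fold change beyond 0.2 in either direction. TMM factors between classes came from genes expected at 5 or more counts in the smallest sum. This restriction was set after data were seen, when factors from all genes were biased in simulated data. No value of that bias is given here, and the split with factors from all genes is given above. Shares went into exact permutation tests, two-sided, of 400 arrangements over libraries, adjusted over 3 tests. Scrublet was run in scanpy 1.11.5 with an expected share of 8%.

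CPM are counts per 1000000 UMIs of a sum. They follow 3′ ends and are compared between samples, not between genes. Outside the lists, named genes were, per class comparison, the 15 largest and 10 smallest log2 fold changes among called genes with at least 100 CPM in the higher class and detection in 25% of its nuclei, and the called genes or the 5 smallest p in each direction for genotype and age. Genes that describe the 3 kinds of nuclei were chosen after values were seen. The alternatives were RLE factors, no filter, DESeq2, doublets removed, thinned sums, other thresholds of the rule, a required marker gene, neurons as denominator and each library left out; leaving out nuclei with ependymal markers, Ndnf+ nuclei alone and TMM over all genes were added after the data were seen. P-values of genotype within an age measure the spread between the 3 mice of a group. Over both ages, between ages and for the interaction they rest on the mice of all groups. Between classes, with library as a block, they measure the spread of the class difference over libraries.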

Additional observations from a re-analysis of the deposited data

How the results depend on the processing

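The genotype difference in share was negative in all alternatives, from -0.0296 to -0.0186 percentage points with 1 library left out and with adjusted p of 0.105 to 0.5625 in the 9 others. The age difference was 0.00229 to 0.0134 with 1 library left out, and turned to -0.0161 with a Reln minimum of 2 and to -5.8e-05 with a Trp73 minimum of 2. The interaction was 0.0334 to 0.0552 with 1 library left out and turned to -0.00987 with a Reln minimum of 5, to -0.00868 with Lhx1, Lhx5, Ndnf or Ebf3 required, and to -0.0190 for Ndnf+ nuclei alone. No alternative passed the adjusted threshold. No paired analysis was possible because the groups share no replicate number.

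Without a filter on low counts, 37 genes were called at 6 months, 14 at 12 months, 15 over both ages, 40 between ages and 27 for the interaction, against 1, 0, 1, 1 and 0. Without doublets each of the 5 counts was 0. With a marker gene required they were 0, 1, 1, 0 and 0, the gene at 12 months being Rnf152, and without nuclei with ependymal markers 1, 0, 1, 0 and 0. With all 12 libraries in 1 fit, 0 genes were called at 6 months. With 1 library left out, counts ranged from 0 to 0 at 6 months, at 12 months and for the interaction, and from 0 to 1 over both ages and between ages. Between classes, 809 genes were called without the filter, 219 with thinned sums and 285 without ependymal-marker nuclei against Reln glutamatergic nuclei, and 444 with thinned sums against Reln GABAergic nuclei. Dnah12 reversed to -0.39 against Reln GABAergic nuclei without the ependymal-marker nuclei, which held nearly all of its UMIs and were chosen by it among other markers. Of the named genes called between classes, 43 to 59 of 59 and 63 to 91 of 92 kept their call per alternative. The cause of other changes was not tested.

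The members numbered 7 to 20 nuclei per library and the Ndnf+ nuclei 0 to 6.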
